A study of Mus musculus with 19 samples.

Results

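Histone genes of the replication-dependent clusters were measured in HCC827 tumours grown in mice and treated with a nucleoside analogue, an EGFR inhibitor or both. They were taken as every gene of the count table whose symbol carries a cluster name of the H1, H2A, H2B, H3 or H4 family, which gave 72 of 31276 genes, of which 71 are described here. The families described held 9 H1, 17 H2A, 17 H2B, 13 H3 and 15 H4 genes. The symbol alone does not make a gene replication-dependent: H1-10, H1-7 and H1-8 carry such symbols but are known as linker histones outside the replication-dependent set. H1-10 is given apart from the 70 other genes, which still include H1-7 and H1-8, both nearly without counts.

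Replication-dependent histone genes supply the proteins that package newly copied DNA, and their transcription and message stability peak in S phase. Their messages usually end in a stem-loop that is bound by SLBP and cut with the help of the U7 small nuclear ribonucleoprotein, and they then carry no poly-A tail. Some of these genes also make messages with a poly-A tail, which are known from cells that leave the cycle or differentiate. Libraries purified on poly-T beads, as here, read the tailed messages and whatever else is carried over, so the levels below are not those of all histone RNA.

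HCC827, a line from a human non-small cell tumour of the lung, carries an activating EGFR mutation. The tumours grew in NCG mice, an immunodeficient strain, which all groups share. DMSO was given to the 5 control tumours, 6-thio-dG to 4 tumours called thio below, osimertinib to 5, and both drugs to the 5 tumours called the combination. 6-thio-dG is a nucleoside analogue that telomerase can add to telomeres, and osimertinib inhibits mutated EGFR. The labels name no dose or day of collection, and all tumours come from 1 cell line. Nor do they tie libraries to separate animals, so the p-values measure only the spread among these libraries, which may be technical. In a whole tumour, fewer cells that express a gene and less RNA of it per cell cannot be told apart.

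Levels are given as CPM, the count of a gene relative to the library's total, scaled by the trimmed mean of M values (TMM). Depth ran from 17731752 counts in combination 5 to 35397346 in osimertinib 2, so 3 counts stood for 0.0848 to 0.169 CPM. The 8 epithelial markers summed to between 14470 and 23931 CPM in every library, and none was at 0 in any, as fits the labelled cell type. Libraries differed in other measures too: the mitochondrial share of counts was 18.6% ± 7.54 (SD, n = 5) for the combination, 12.0% ± 3.42 (n = 5) for osimertinib, 6.45% ± 1.07 (n = 4) for thio and 8.15% ± 0.835 (n = 5) for control. Summed olfactory receptor genes, silent in most tissues, stood at 25.2 ± 11.2, 14.8 ± 3.57, 13.4 ± 6.48 and 4.99 ± 3.07 CPM in the same order and were highest in combination 5 (39.5), combination 3 (33.5) and thio 3 (22.8). The 6 fibroblast markers summed to 239 to 372 CPM for thio and to 382 to 895 CPM for control. Of the 5 tested 2, COL1A1 and COL3A1, were lower in thio. Collagen genes made up most of that sum: COL1A1, COL3A1 and COL1A2 averaged 389, 61.5 and 47.3 CPM over all libraries. LUM, PDGFRB and DCN averaged 2.72, 0.433 and 0.114 CPM, and DCN was at 0 in 6 libraries. The 5 skeletal muscle markers ranged from 28.9 to 60.3 CPM for thio and from 13.7 to 675 CPM for control, and 1 of them, MYL1, was lower in thio. Of 8 epithelial markers 2, MUC1 and EGFR, were higher in thio, as was 1 of 4 endothelial markers, CDH5, and none of 4 leukocyte markers was called. Under osimertinib 1 of the 5 muscle markers, TNNT3, was lower than control and no other marker was called. These markers and measures moved with the groups, and the part of the markers in the histone results was not tested. The markers were counted under human symbols, and whether mouse reads were removed is not given. They therefore do not show which cells, of the tumour line or of the mouse, expressed them.

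Of the 71 genes, 35 passed the filter on low counts: 2 of the H1 family, 9 of H2A, 13 of H2B, 4 of H3 and 7 of H4. Without H1-10 they are 34. The 36 others averaged at most 0.200 CPM, the value of H1-4, and none exceeded 16 counts in any library. Among them were H1-6, H1-7 and H2AC1, known as testis histones, and H1-8, known from the oocyte. H1-6 had 59 counts over all 19 libraries, H1-7 had 36, H2AC1 had 33 and H1-8 had 1. The germ cell markers DAZL and PRM1 were at 0 in 15 and 18 libraries, respectively. DDX4 and SYCP3, also on that list, were at 0 in only 3 and 1, with means of 0.207 and 0.201 CPM. The 4 markers summed to 0.809 ± 0.404 CPM (SD, n = 5) in the combination and 0.252 ± 0.140 (n = 5) in control. The untested genes together reached between 1.23 CPM (combination 3) and 3.30 CPM (osimertinib 4), with group means of 2.04 ± 0.358 (SD, n = 5) for control and 2.23 ± 0.332 (n = 4) for thio.

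The poly-A signal was concentrated in few genes. H2AC6 and H2BC12, an H2A and an H2B gene, led the 70 genes other than H1-10 with means of 71.2 and 57.1 CPM over all libraries. H2AC25, H2BC21, H1-2 and H2BC5 followed with 18.9, 15.3, 15.2 and 15.0 CPM. The H3 and H4 genes were low: H3C10 averaged 2.89 CPM and H4C8 3.10 CPM, the highest tested of the H4 family. These levels are not corrected for message length, so the order is one of counts, not of molecules. H2AC6, H2BC4, H2BC5, H2BC12 and H2BC21, which are known to make tailed messages, summed to 188 ± 44.4 CPM (SD, n = 5) in control, against 80.4 ± 11.5 CPM for the other 65 genes without H1-10. Tails were not measured, so this split does not show that the other 65, with H2AC25 and H1-2 among them, lacked tailed messages. Near-identical copies exist within each family, so reads shared between copies could have been split or dropped by the counting, and single-gene values are uncertain to that extent. No 2 of the 71 genes had the same counts in every library. The kit does not mark the strand, so antisense reads were not separated.

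The first comparison asked what 6-thio-dG alone did to these messages. In thio tumours 13 of the 35 tested genes fell against control and none rose, at an adjusted p under 0.05 by the edgeR quasi-likelihood test with Benjamini-Hochberg adjustment over all genes. The genes that fell came from every core family: 3 H2A, 5 H2B, 3 H3 and 2 H4 genes. Those 13 are 37.1% of the tested members, while 4.63% of all 16704 tested genes were called lower and 9.27% higher. The members' median log2 fold change was -0.92, beside 0.01 over all genes, and 30 of the 35 estimates were below 0. At a mean level of at least 1 CPM, 9 of 21 members fell, where 5.22% of the 13752 genes at that level were called lower. With upper-quartile scaling, 6.32% of all genes were called lower and 7.93% higher, and 14 members were lower.

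H3C10, an H3 gene, had the smallest p of the members. Its level was 3.83, 5.12, 3.34, 4.48 and 1.60 CPM in the control libraries and 0.645, 1.15, 0.974 and 1.04 CPM in thio. All thio libraries lay below all controls. The log2 fold change was -1.94 ± 0.36 (SE, edgeR adjusted p = 0.00234), and control 5 stood nearest to thio. How many of all genes separated the groups compared was not counted. The separation of H3C10 and those given below are therefore not shown to be particular to histone genes.

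H2BC9, an H2B gene, stood at 1.69, 2.45, 3.17, 3.19 and 1.44 CPM in control and at 0.645, 0.432, 1.06 and 0.202 CPM in thio. The groups did not overlap, and the log2 fold change was -2.05 ± 0.45 (edgeR adjusted p = 0.00662). H2AC8, an H2A gene, read 2.27, 2.13, 3.51, 4.88 and 2.10 CPM in control and 0.903, 1.26, 0.930 and 1.47 CPM in thio, again without overlap. Its log2 fold change was -1.37 ± 0.35 (edgeR adjusted p = 0.0147). H4C14, an H4 gene, read 0.847, 1.55, 0.689, 0.646 and 0.501 CPM in control and 0.355, 0.288, 0.177 and 0.202 CPM in thio. It too separated the groups, at -1.70 ± 0.43 (edgeR adjusted p = 0.0147), but on 4 to 11 counts per thio library.

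H2BC8 and H2BC6 fell with overlapping groups. H2BC8 was at 6.24, 8.43, 6.03, 6.54 and 3.07 CPM in control and at 2.45, 3.71, 2.08 and 2.34 CPM in thio, a log2 change of -1.19 ± 0.29 (edgeR adjusted p = 0.0119). H2BC6 was at 3.70, 5.91, 3.06, 4.12 and 1.90 CPM in control and at 1.16, 1.33, 1.15 and 1.96 CPM in thio, a log2 change of -1.40 ± 0.31 (edgeR adjusted p = 0.0065). In both genes control 5 was the only control within the thio range. H2BC5, one of the genes known for tailed messages, fell by 0.92 ± 0.23 on the log2 scale (edgeR adjusted p = 0.0128), from 18.2, 25.9, 14.5, 19.8 and 11.6 CPM to 7.45, 12.7, 8.81 and 9.13 CPM. H2AC25, the second H2A gene by level, fell less, by 0.70 ± 0.20 (edgeR adjusted p = 0.0264), from 21.7, 18.6, 29.7, 24.8 and 21.1 CPM to 13.5, 12.5, 19.1 and 11.9 CPM. Thio 3 alone reached the lowest control.

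H3C8, H2BC26, H2AC11, H4C8 and H3C2 made up the rest. Their log2 fold changes ran from -2.59 (H3C8) to -1.07 (H4C8), with edgeR adjusted p-values from 0.0165 to 0.0487. H3C8, H2AC11 and H3C2 showed no overlap between the groups. H3C8 had only 2 to 5 counts in the thio libraries, H3C2 had 1 to 5 and H2AC11 had 3 to 14. The fold changes of these genes are therefore set in part by the fit's handling of low counts.

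**Figure D1:**
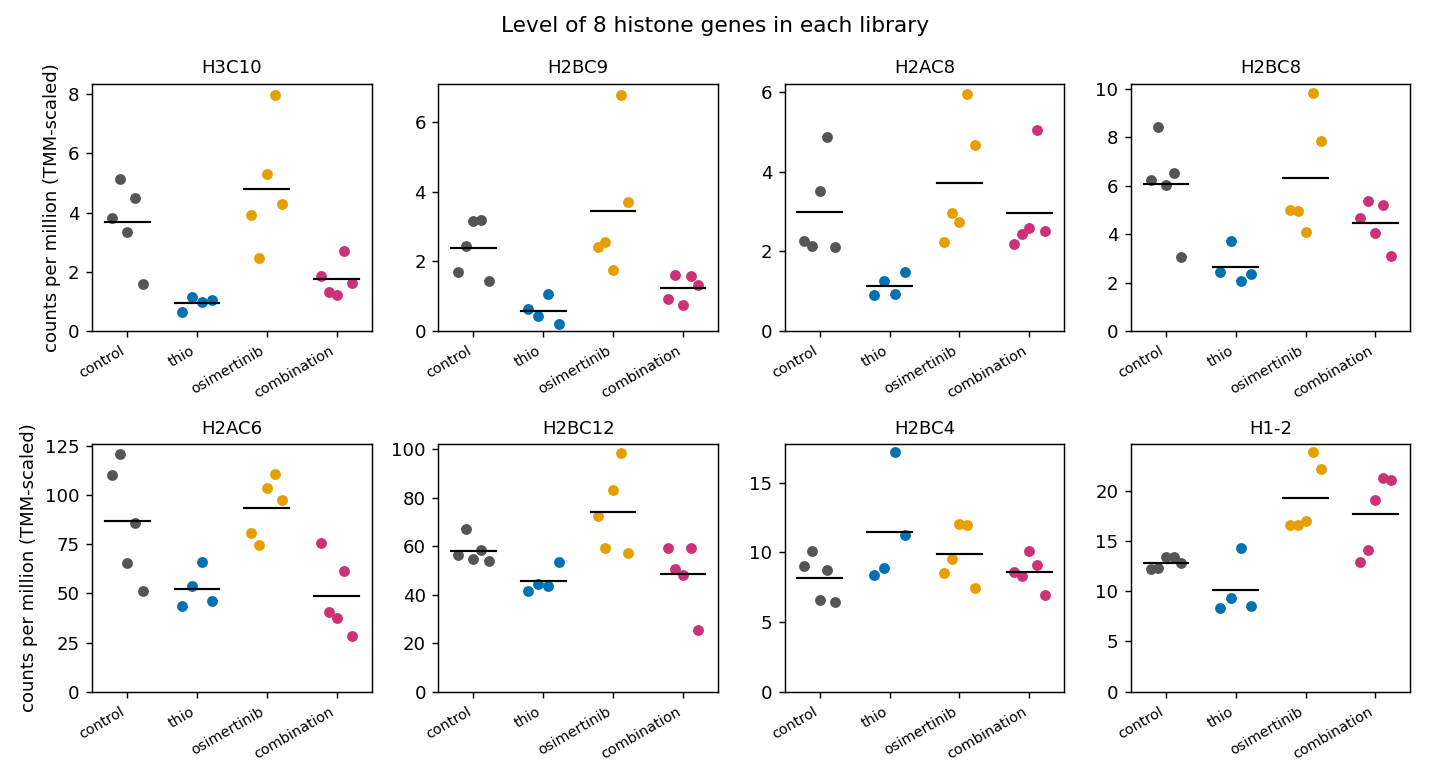
Level of 8 histone genes in each library, in TMM-scaled CPM on linear axes from 0; points are libraries and horizontal lines are group means (control n = 5, thio n = 4, osimertinib n = 5, combination n = 5). H3C10, H2BC9 and H2AC8 have all thio libraries below all controls, while H2BC4 and H1-2 do not.

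The most abundant genes moved less clearly. H2AC6 read 110.0, 121, 65.1, 85.8 and 51.2 CPM in control and 43.6, 53.9, 65.7 and 45.9 CPM in thio, a log2 change of -0.73 ± 0.26 that missed the threshold (edgeR adjusted p = 0.0646). H2BC12 read 56.4, 67.1, 54.5, 58.4 and 53.8 CPM in control and 41.7, 44.4, 43.4 and 53.5 CPM in thio. All thio libraries of H2BC12 were below all controls, but its log2 change of -0.34 ± 0.19 was not called (edgeR adjusted p = 0.245). H2BC4 gave a positive estimate, 0.48 ± 0.21 (edgeR adjusted p = 0.123), with thio 3 highest at 17.2 CPM. Of the 5 genes known for tailed messages 1 fell, and of the other 29 tested replication-dependent genes 12 fell; the difference between these shares was not tested. Their medians were -0.34 and -1.07 on the log2 scale.

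Neither tested H1 gene passed the threshold. H1-10 stood at 54.8, 71.3, 80.2, 91.3 and 75.4 CPM in control and at 78.5, 71.5, 96.7 and 59.0 CPM in thio. The groups overlapped widely, with a log2 change of 0.03 ± 0.15 (edgeR adjusted p = 0.906). H1-2, the only replication-dependent H1 gene past the filter, gave -0.34 ± 0.18 (edgeR adjusted p = 0.213).

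Summed over genes, the 65 genes outside the tailed subset, H1-10 left out, stood at 77.8, 89.9, 85.6, 87.4 and 61.4 CPM in control and at 44.4, 46.4, 57.0 and 44.5 CPM in thio, with no overlap. The 5 genes of the tailed subset summed to 212, 246, 155, 192 and 135 CPM in control and to 117, 132, 159 and 129.8 CPM in thio, where thio 3 exceeded control 3 and control 5. By family, the H3 genes went from 7.74 ± 2.29 CPM (SD, n = 5) to 3.22 ± 0.485 (n = 4), and the H4 genes from 7.16 ± 2.97 to 4.51 ± 0.369. The H2A sum, mostly H2AC6, went from 117 ± 27.6 to 69.8 ± 13.0 CPM.

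The 13 calls depended on the libraries and on the model. Without thio 3, the thio library with the most olfactory receptor counts, 6 were called, and 1.25% of all genes were then called lower. Without control 4, 8 were called. A fit with the summed olfactory receptor level as a covariate called none of the 35 and 0% of all genes, with a member median of -1.03. That level was 8.33 to 22.8 CPM in thio and 2.12 to 8.59 CPM in control, so the covariate's part and the treatment's can hardly be told apart. With the mitochondrial share as a covariate 15 were called lower. For this fit and the one without control 4 the share of all genes called is not given here. Those 2 counts therefore cannot be set against their background. H3C10, H2BC6, H2BC9, H2BC5 and H3C8 kept their call without each single library in turn. H2BC8, H4C14 and H2AC8 lost it without thio 3, at edgeR adjusted p-values of 0.0519, 0.0613 and 0.0597. H2AC25 lost it without control 3, control 4, thio 1 or thio 4 (up to 0.0777), and H2BC26 without control 4, thio 1 or thio 3 (up to 0.0897).

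**Figure D2:**
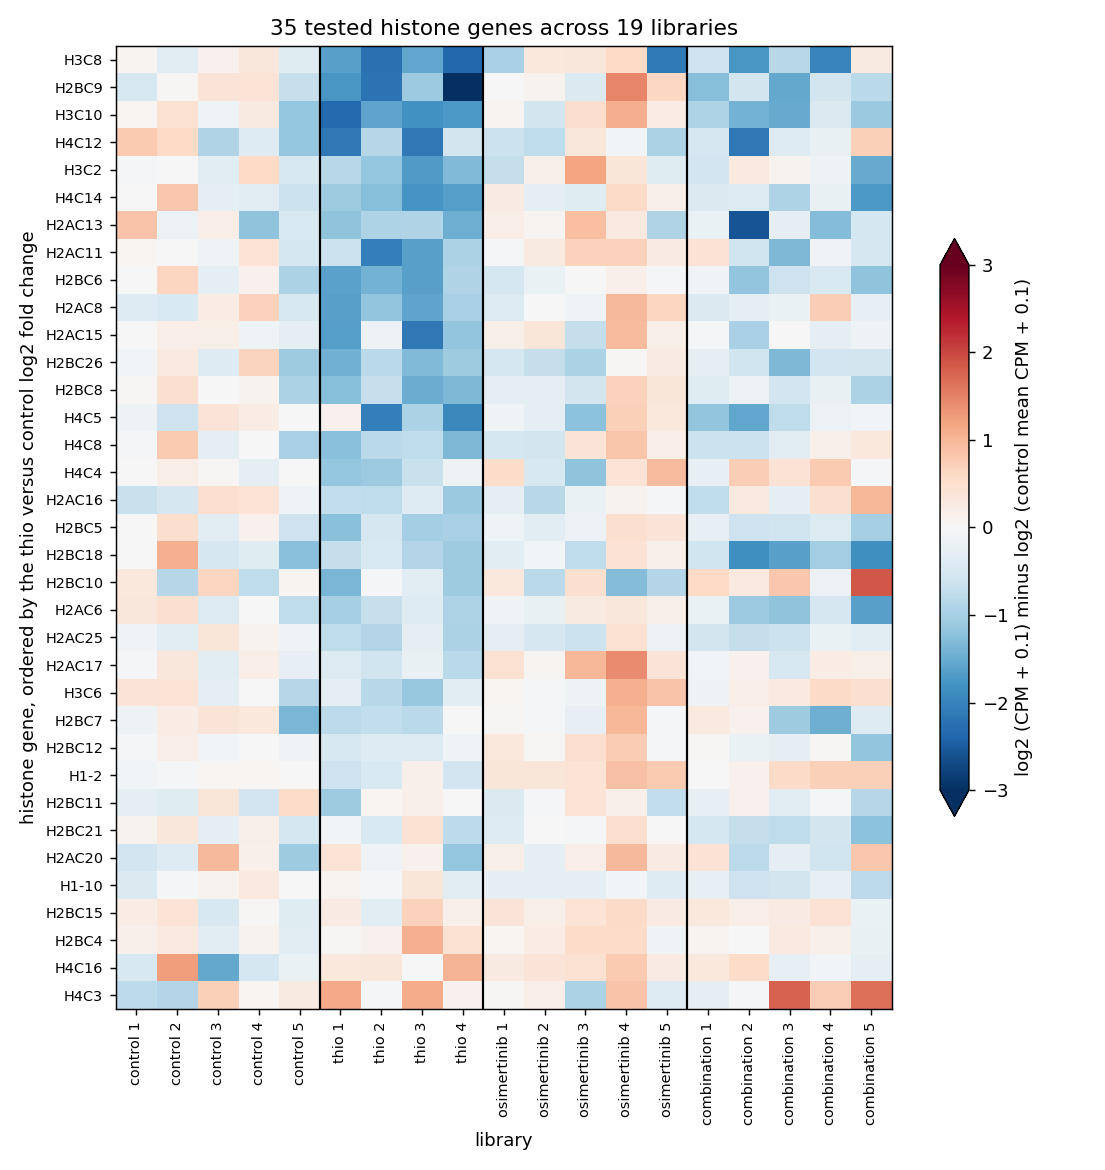
The 35 tested histone genes (rows, ordered by the thio versus control log2 fold change) in 19 libraries (columns); colour is log2 (CPM + 0.1) minus the log2 of the control mean CPM + 0.1, limited to 3 either way. Most genes are below the control mean in the 4 thio libraries, and osimertinib 4 is the highest library for 15 of the 35, a rank not counted over all genes.

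The genes that act on histone messages were looked at beside them. Of 20 tested genes that process or degrade histone messages none was called in thio by edgeR, and 1 was lower at an unadjusted p under 0.05. SLBP, which binds the stem-loop, gave a log2 change of -0.18 ± 0.14 (edgeR adjusted p = 0.402), and CASP8AP2, which takes part in making these messages, gave 0.08 ± 0.19 (edgeR adjusted p = 0.804). Of 10 genes of histone transcription 2 rose, POU2F1 (0.53 ± 0.12, edgeR adjusted p = 0.00778) and NPAT (0.53 ± 0.16, edgeR adjusted p = 0.0366), the coactivator of replication-dependent histone genes. Among 25 S phase genes 2 fell: RFC4, a clamp loader subunit (-0.52 ± 0.13, edgeR adjusted p = 0.015), and CLSPN, a checkpoint adaptor at forks (-0.85 ± 0.23, edgeR adjusted p = 0.0196). The S phase median was -0.30. At an unadjusted p under 0.05, 8 S phase genes were lower and 0 higher, beside 30.4% of all genes in either direction. Of 15 histone chaperone genes 3 fell, TONSL, HIRA and ASF1A, with log2 changes of -0.58, -0.38 and -0.46. At an unadjusted p under 0.05, 8 chaperone genes were lower and 0 higher. Of 9 replication-independent variant histones 2 fell, H3-3A at -0.49 and H2AJ at -0.56, and 4 were lower at an unadjusted p under 0.05. None of 7 tested RNAs without a poly-A tail was called in thio by edgeR, with 1 higher at an unadjusted p under 0.05, but thio 1 stood apart at a sum of 103 CPM, of which RN7SL1 made up 92.0 CPM. With that sum as a covariate, 11 histone genes were called lower. The share of all genes called lower in that fit is not given here.

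Under osimertinib none of the 35 members passed the threshold by the edgeR test, where 2.70% of all genes were called higher and 1.46% lower. At an unadjusted p under 0.05 there were 2 members (5.71%), both higher, beside 19.6% of all genes. DESeq2 called 1 member, where it called 4.51% of all genes higher and 2.68% lower. The member median was 0.17, beside 0.02 over all genes. H1-2 came nearest: 12.2, 12.3, 13.4, 13.4 and 12.8 CPM in control and 16.6, 16.6, 17.0, 23.8 and 22.2 CPM in osimertinib. All osimertinib libraries lay above all controls, with a log2 change of 0.59 ± 0.17 (edgeR adjusted p = 0.0538). It was this gene that DESeq2 called, at an adjusted p of 0.0334. A p above the threshold does not show that levels were alike: H3C10, for example, ranged from 2.48 to 7.99 CPM in osimertinib. Osimertinib had the highest group mean for 21 of the 35 genes, and osimertinib 4 alone was the highest of all libraries for 15. Neither rank was counted over all genes, so neither is shown to be particular to histone genes. None of the tested genes of histone message processing, histone transcription, chaperones, S phase or variant histones was called by edgeR in this comparison. At an unadjusted p under 0.05 there were 2 of 20 processing genes, 1 higher and 1 lower, 1 of 10 transcription genes, and 0 of the other lists.

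Under the combination 7 members were lower than control and 1 was higher, where 23.1% of all genes were lower and 25.7% higher. The 20% of members called lower is near that background, so the count is not a result about histone genes. Upper-quartile scaling called 18.0% of all genes lower and 31.1% higher, and 5 members lower and 1 higher. The genes that fell were H2BC18, H2AC6, H2BC21, H1-10, H3C10, H2BC5 and H2AC25.

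H2BC21, a tailed H2B gene, read 18.7, 22.2, 14.3, 19.7 and 12.1 CPM in control and 12.0, 10.6, 10.1, 11.8 and 7.29 CPM in the combination. The groups did not overlap but nearly met, and the log2 change was -0.74 ± 0.22 (edgeR adjusted p = 0.00926). H2AC6 read 75.8, 40.4, 37.5, 61.4 and 28.1 CPM, with a log2 change of -0.83 ± 0.24 (edgeR adjusted p = 0.00874) and combination 1 and combination 4 inside the control range.

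H3C10 read 1.87, 1.32, 1.23, 2.72 and 1.63 CPM in the combination, a log2 change of -1.06 ± 0.32 (edgeR adjusted p = 0.0113). Control 5, at 1.60 CPM, lay among these values. H2BC18, at 1.48, 0.564, 0.676, 1.06 and 0.566 CPM, fell by 1.37 ± 0.39 (edgeR adjusted p = 0.00738), against controls of 2.32, 4.90, 1.58, 1.78 and 0.901 CPM. H1-10, H2BC5 and H2AC25 had log2 changes of -0.48, -0.56 and -0.48, with edgeR adjusted p-values of 0.0111, 0.0347 and 0.0418. H1-2 rose instead, by 0.46 ± 0.17 (edgeR adjusted p = 0.0293), to 12.9, 14.1, 19.0, 21.3 and 21.1 CPM. Combination 1 was the only library of H1-2 within the control range. H2AC8, which fell in thio, gave -0.01 ± 0.31 (edgeR adjusted p = 0.99).

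S phase genes in the combination were lower in 20 of 25 cases, and none was higher. Against control, 23.1% of all genes were lower and 25.7% higher, the background for each list in this paragraph. FEN1, a flap nuclease, had a log2 change of -1.21 ± 0.21, and MCM2, a subunit of the replicative helicase, one of -1.43 ± 0.25. CCNE1 and CCNE2, the E-type cyclins of S phase entry, changed by -0.87 and -0.78, while NPAT rose by 0.47 ± 0.16 (edgeR adjusted p = 0.0175). Of 20 message processing genes 8 fell, among them UPF1, a helicase of message decay, at -0.74, and CSTF2, a cleavage stimulation factor subunit, at -0.76. Of 15 chaperone genes 7 fell and 2 rose. HAT1, which acetylates new H4, changed by -0.92, and CHAF1A, a subunit of the chromatin assembly factor, by -0.80. Of 9 variants H2AZ1 changed by -0.39 and MACROH2A2 rose by 1.24.

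Of the cell type markers, 3 of 5 for fibroblasts (COL1A2, COL3A1 and LUM), 1 of 5 for muscle (TNNT3) and 1 of 4 for endothelium (PECAM1) were also lower than control, and none of the epithelial or leukocyte markers was called. The part of these markers in the histone calls was not tested. With the mitochondrial share as a covariate, none of the 8 histone calls against control was made, and 1.13% of all genes were called lower. The member median was then -0.32, beside -0.33 without the covariate. The covariate rises with the treatment, so its part and that of the treatment cannot be told apart in this fit. Leaving out thio 3, combination 3 and combination 5 left 1 histone gene called, H2BC21, among 13.8% of all genes called lower. Without single libraries, between 5 (without combination 3) and 11 members were called. The share of all genes called in each of these refits is not given here, so this range cannot be set against its background. H2BC18, H2AC6, H2BC21, H1-10 and H3C10 kept their call without each single library. H1-2 lost it without control 1, control 2, combination 3, combination 4 or combination 5 (edgeR adjusted p up to 0.0928). H2BC5 lost it without control 1, control 2, control 4, combination 2, combination 3 or combination 5 (up to 0.126), and H2AC25 without control 1, control 3, control 4, combination 1, combination 2 or combination 3 (up to 0.122).

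**Figure D3:**
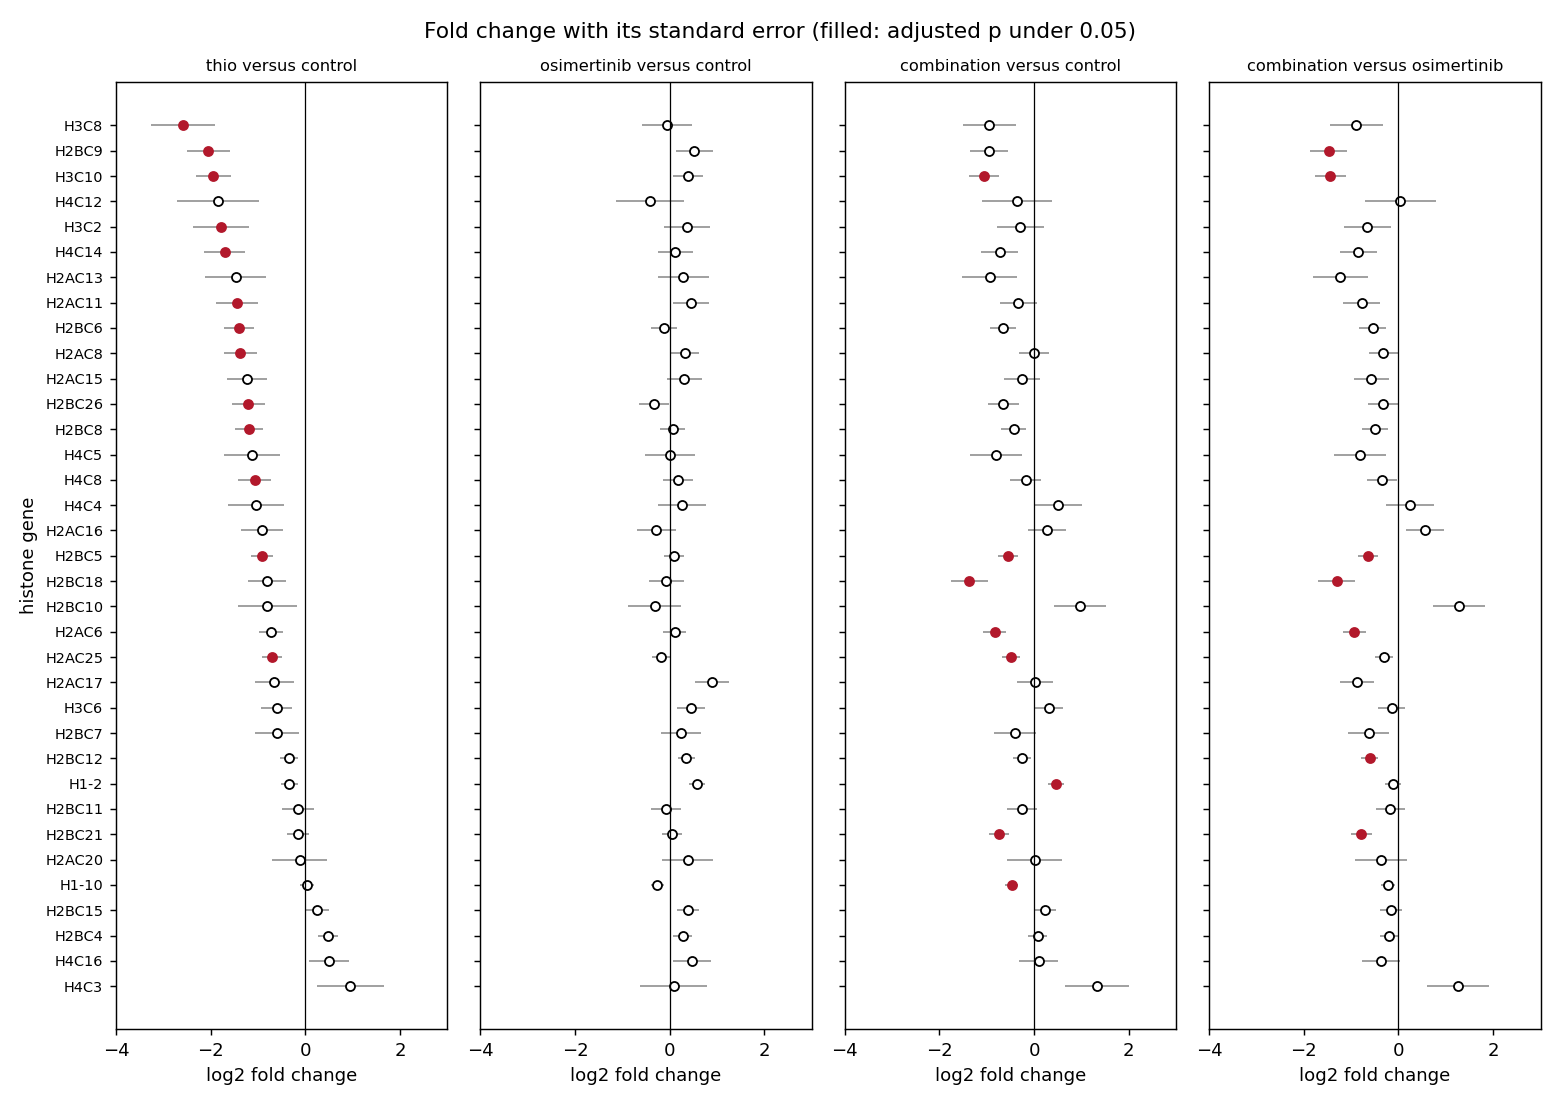
Log2 fold change of the 35 tested histone genes with its standard error in 4 comparisons (each single drug and the combination versus control, and the combination versus osimertinib); filled points have an adjusted p under 0.05. In thio versus control 30 of 35 estimates are below 0, and in osimertinib versus control no point is filled.

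Against osimertinib alone, the combination was lower in 7 of the 35 members and higher in none, where 7.66% of all genes were lower and 8.09% higher. The 7 are 20% of the members, and the member median was -0.49, beside 0.00 over all genes. Upper-quartile scaling called 5.63% of all genes lower and 10.4% higher, and 6 members lower. The genes were H3C10, H2AC6, H2BC9, H2BC21, H2BC18, H2BC12 and H2BC5, among which are 4 of the 5 genes known for tailed messages.

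H3C10 read 3.91, 2.48, 5.32, 7.99 and 4.29 CPM in osimertinib, and in the combination only combination 4 (2.72 CPM) exceeded the lowest of these. The log2 change was -1.44 ± 0.32 (edgeR adjusted p = 0.0121). H2BC9 read 2.42, 2.56, 1.74, 6.78 and 3.72 CPM in osimertinib and 0.918, 1.60, 0.755, 1.59 and 1.32 CPM in the combination, without overlap, at -1.48 ± 0.40 (edgeR adjusted p = 0.0221). H2AC6 read 80.7, 74.4, 104, 110.5 and 97.2 CPM in osimertinib, and only combination 1 reached that range. Its log2 change was -0.94 ± 0.24 (edgeR adjusted p = 0.0195).

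H2BC12 read 72.5, 59.2, 83.0, 98.3 and 57.0 CPM in osimertinib and 59.2, 50.6, 47.9, 59.3 and 25.3 CPM in the combination. The groups overlapped, and the log2 change was -0.61 ± 0.18 (edgeR adjusted p = 0.0328). H2BC21 did not overlap between the groups, at -0.78 ± 0.22 (edgeR adjusted p = 0.0245). H2BC18 and H2BC5 had log2 changes of -1.30 and -0.64. Of these calls only that of H3C10 held without each single library: 1 gene was called without combination 3 and 1 without combination 5, 2 without osimertinib 3 or osimertinib 4, and 4 without osimertinib 1 or combination 2. For these single-library refits the share of all genes called is not given here. Their counts therefore cannot be set against a background. Without thio 3, combination 3 and combination 5 together none was called, and 0.0122% of all genes were called lower. In the same comparison 14 of 25 S phase genes, 4 of 20 message processing genes, 2 of 10 transcription genes and 3 of 15 chaperone genes fell, and none of these lists had a gene that rose. Of all genes 7.66% were lower and 8.09% higher. Of the cell type markers only PECAM1, an endothelial one, was called, and it was lower in the combination.

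Against thio alone, the combination was higher in 10 members and lower in 2, where 21.2% of all genes were higher and 22.9% lower. The 28.6% of members called higher is near the background, and 5.71% were called lower. Upper-quartile scaling gave 16 members higher and 0 lower, where 29.4% of all genes were higher and 15.5% lower. The member median was 0.68, beside 0.03 over all genes. Markers of several cell types were called too: 1 of 8 epithelial markers was higher and 3 lower, 1 of 4 endothelial markers was higher and 1 lower, 1 of 5 fibroblast markers was higher, and 1 of 4 leukocyte markers was lower. Their part in the histone calls was not tested.

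H2AC8 rose from its thio level to 2.19, 2.44, 2.58, 5.04 and 2.51 CPM, above all thio libraries, by 1.37 ± 0.35 on the log2 scale (edgeR adjusted p = 0.00414). H1-2 rose by 0.80 ± 0.18 (edgeR adjusted p = 0.00178) from 8.36, 9.37, 14.3 and 8.55 CPM in thio, where thio 3 overlapped the combination. H3C6, an H3 gene, read 2.03, 1.33, 1.06 and 1.94 CPM in thio and 2.19, 2.82, 3.02, 3.70 and 3.46 CPM in the combination, without overlap, and rose by 0.92 ± 0.32 (edgeR adjusted p = 0.0249). H2BC8, H4C8, H3C2, H2AC11, H2AC16, H2BC10 and H4C4 were the others that rose, with log2 changes from 0.76 (H2BC8) to 1.77 (H2BC10). Of these, H2AC16, H2BC10, H4C4, H3C2 and H2AC11 averaged under 1 CPM.

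Those that fell, of which neither was called with upper-quartile scaling, were H1-10 at -0.51 ± 0.15 (edgeR adjusted p = 0.0112) and H2BC21 at -0.59 ± 0.23 (edgeR adjusted p = 0.0441). Beside them 8 of 25 S phase genes fell and none rose, where 22.9% of all genes were lower and 21.2% higher. This comparison shares its thio libraries with the first and its combination libraries with the others, so its values are not separate evidence for either. The calls numbered 5 without thio 1 or thio 3, 6 without combination 4 and 7 without thio 2 or thio 4. The shares of all genes called in these refits are not given here, so these counts cannot be set against their background. H1-2 and H2AC8 kept their call without each single library, and H1-10 lost it without thio 3 alone (edgeR adjusted p = 0.0511). H2BC10 lost it without thio 1, thio 4 or combination 5 (up to 0.0877), and H3C6 without thio 2, thio 3 or combination 4 (up to 0.0759).

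The last test asked whether the difference that 6-thio-dG made on top of osimertinib differed from the one it made alone. None of the 35 members was called by edgeR, where 1.24% of all genes were called higher and 2.21% lower; upper-quartile scaling gave 2.14% and 1.59%. At an unadjusted p under 0.05 there were 5 members (14.3%), of which 4 were higher and 1 lower, beside 26.3% of all genes. DESeq2 called 0 members, where it called 5.13% of all genes higher and 5.71% lower. The member median was 0.41, beside -0.04 over all genes. The smallest adjusted p was that of H2BC10, at 2.09 ± 0.83 (edgeR adjusted p = 0.121). For H2AC8 the estimate was 1.05 ± 0.47 (edgeR adjusted p = 0.156), and for H3C10 it was 0.50 ± 0.47 (edgeR adjusted p = 0.507). For no member was the difference 6-thio-dG made alone shown to differ from the one it made on top of osimertinib, which does not show that they are alike.

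**Figure D4:**
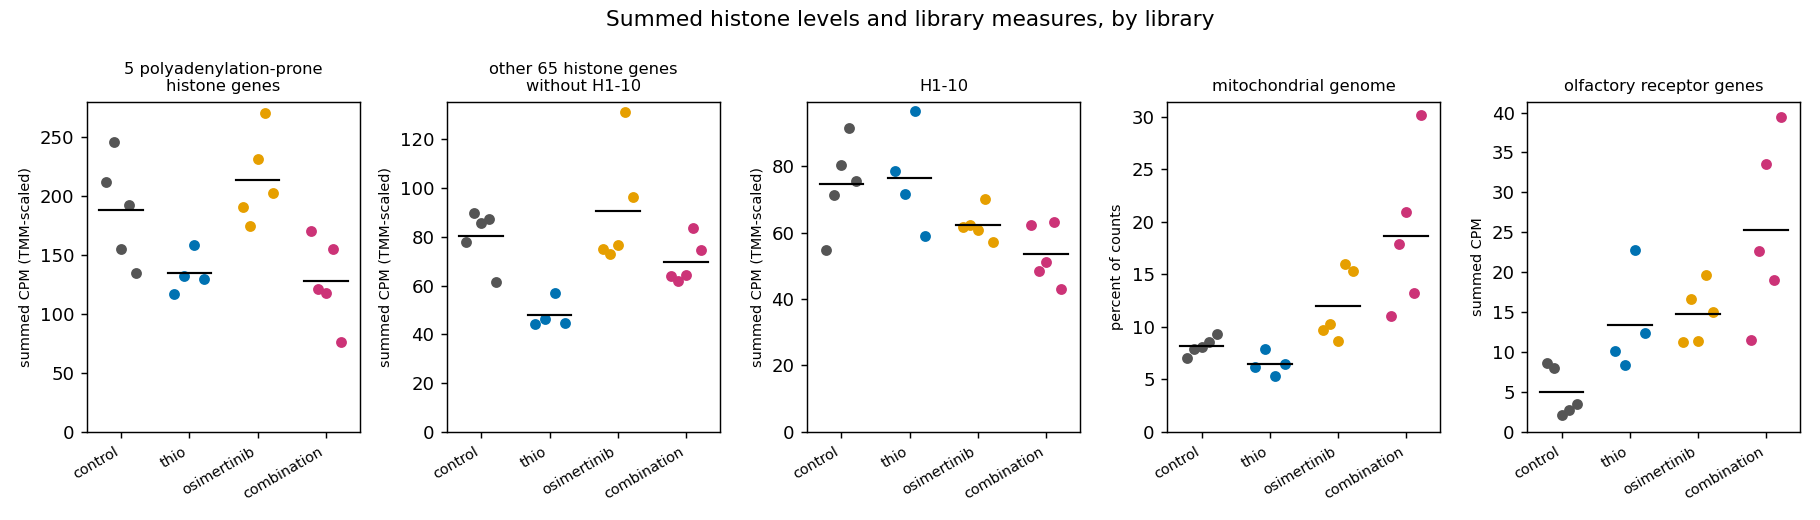
Summed levels of the tailed subset and of the 65 other histone genes, and the level of H1-10, in TMM-scaled CPM, with the mitochondrial percent and the summed olfactory receptor CPM of the same libraries; points are libraries and horizontal lines are group means. The 65 other histone genes sit between 44.4 and 57.0 CPM in thio, below every control, and mitochondrial percent and olfactory receptor CPM are highest in the combination.

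Across all groups, the thio mean was the lowest of the 4 for 26 of the 35 genes. This rank was not counted over all genes, so it is not shown to be particular to histone genes. The 70 genes other than H1-10 summed to 305 ± 59.5 CPM (SD, n = 5) under osimertinib, 269 ± 52.8 (n = 5) under vehicle, 198 ± 37.5 (n = 5) under both drugs and 183 ± 23.3 (n = 4) under thio. The tailed subset was at 128 ± 36.6 CPM in the combination, near its thio value of 135 ± 17.4. The other 65 genes stood at 69.7 ± 9.26 CPM in the combination, between thio at 48.1 ± 6.03 and control at 80.4 ± 11.5. H1-10 stood at 76.4 ± 15.7 CPM in thio, 74.6 ± 13.4 in control, 62.4 ± 4.76 under osimertinib and 53.6 ± 8.84 under both drugs.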

How the data were processed

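RNA of HCC827 tumours was purified on poly-T beads and made into libraries without strand marking. Per the submitters' processing notes, FastQC, Trimmomatic and STAR were used with hg38. The following is not given in the sources used here: their versions, the counting tool, the annotation and whether mouse reads were removed. The labels give the mouse as organism, while the symbols are human. The authors deposited raw read counts per gene symbol, without normalization, for 31276 genes and 19 libraries, and 0 columns were left unused. No row lacked a gene name.

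The analysis used edgeR 4.0.16 in R 4.3.3. Genes were kept by filterByExpr, grouped by treatment, at a minimum count of 10 and a minimum total of 15, which left 16704. After TMM scaling, a quasi-likelihood fit of group means over 19 libraries gave 6 contrasts, adjusted by Benjamini-Hochberg over all tested genes and called at an adjusted p under 0.05. The fit was tested on simulated data. Total counts of 17731752 to 35397346 set the precision; floors cover counting error only, because reads that carry no molecular identifier may copy the same molecule.

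The members and lists were chosen with earlier results of these data known. Named with values are the 3 highest genes of each family, up to 10 called members with the smallest p per contrast, H1-10, up to 4 called genes per list, SLBP, NPAT and CASP8AP2; other members are named to account for every call or as extremes. The pseudogenes were chosen after their values were seen. Alternatives were DESeq2 1.42.0, upper-quartile or RLE scaling, leaving the filter off or requiring a CPM of 1 or more in 4 libraries, only the groups of each contrast, covariates for mitochondrial share, 271 olfactory receptor genes or RNAs without a poly-A tail, the set without H1-10, identical members once, and leaving out each library. Chosen after seeing the data were the fit without thio 3, combination 3 and combination 5 and the limit to members at mean CPM of at least 1. Plots used matplotlib 3.10.9 in Python 3.11.15. Of the 72 genes 1 is not reported here; it stayed in the fit and was left out of every count, sum and median of histone genes. Sequences and positions were not used here.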

Additional observations from a re-analysis of the deposited data

Results flagged for a closer look

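In 100 groups of 4 or 5 libraries checked for a single value far from the rest, over 22 genes and 3 sums, 4 stood apart; chance alone gives about 1 in 20. H1-2 in thio 3 was at 14.3 CPM, with the nearest of its group at 9.37 CPM. H2AC8 in combination 4 was at 5.04 CPM, with the nearest at 2.58 CPM. H4C16 in control 2 was at 2.74 CPM, with the nearest at 0.934 CPM. The summed CPM of the 65 other histone genes, without H1-10, in thio 3 was 57.0, with the nearest at 46.4. Thio 3 is also the thio library with the most olfactory receptor counts, and the part of that in its histone levels was not tested.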

How the results depend on the processing

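Thio versus control called 13 members, 8 with only the groups of the contrast and 0 with the olfactory receptor covariate, and 6 to 14 without single libraries. Osimertinib versus control called 0 members, 1 with DESeq2, upper-quartile scaling, only its groups, or without thio 3, combination 3 and combination 5 (H1-2 each time), and 0 to 1 without single libraries. Combination versus control called 8, but 0 with the mitochondrial or the olfactory covariate, 1 without those 3 libraries, and 5 to 11 without single libraries. Combination versus osimertinib called 7, but 0 with the mitochondrial covariate, 2 with the olfactory covariate, 0 without those 3 libraries, and 1 to 8 without single libraries. Combination versus thio called 12, but 6 with no filter, 7 with only its groups, 0 with the mitochondrial covariate, 7 with the olfactory covariate, 3 without those 3 libraries, 7 at mean CPM of at least 1, and 5 to 13 without single libraries. The interaction called 0, and 0 to 1 without single libraries (H4C16 without control 2, H1-4 without thio 2). The cause of these changes was not tested, and the limit to mean CPM of at least 1 leaves fewer members. These counts are given without the share of all genes called in each refit, which also changed between refits. No named fold change reversed: the call was kept in 264 of 288 refits of the named genes for thio versus control, 188 of 232 for combination versus control, 148 of 203 for combination versus osimertinib and 211 of 286 for combination versus thio. Those genes were named for their small p in the same data, and some refits left out only a library outside the contrast. The tallies are therefore not separate evidence for the calls. Upper-quartile scaling moved the median log2 change of all genes from 0.02 to 0.13 in combination versus control and from 0.03 to 0.21 in combination versus thio; the members' medians moved with it, from -0.33 to -0.23 and from 0.68 to 0.85. All other counts stayed within 1.5 times. No paired analysis was possible because the titles give each library its own number and none is shared across groups. The 36 genes below the filter were not tested in the reported fit, and H1-4 is one of them.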

Other observations

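Among 7 histone pseudogenes, 4 passed the filter; this list was chosen after its values were seen. H2AC10P had a log2 change of -2.31 in thio (edgeR adjusted p = 0.026) and of -1.82 in the combination (edgeR adjusted p = 0.0172), each against control. H2BC19P was higher in the combination than in thio by 0.62 (edgeR adjusted p = 0.00561), and H3C5P by 2.60 ± 1.00 (edgeR adjusted p = 0.0394). H2AC10P read 0.400 to 0.847 CPM in control, 0.0443 to 0.144 CPM in thio and 0 in combination 2 and combination 5. H3C5P read 0 in thio 1 and thio 3. Several of these values lie near or below the level of 3 counts, so the fold changes of these 2 pseudogenes rest on few counts. The pseudogenes summed to 54.6 ± 10.2 CPM (SD, n = 5) under osimertinib, 51.4 ± 4.30 (n = 5) under both drugs, 46.4 ± 6.32 (n = 5) under vehicle and 38.5 ± 3.24 (n = 4) under thio. Reads shared with the intact genes could contribute to these counts, which was not tested. H1-4, a linker gene below the filter, had 1 to 4 counts in the control libraries and 15, 5, 11 and 11 in thio. It had 5, 7, 16, 9 and 2 counts in osimertinib, where osimertinib 3 exceeded every thio library. In the combination it had 3, 0, 2, 5 and 5.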
